A study of Mus musculus with 7 samples.

Results

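Interferon-stimulated genes are genes that cells switch on when interferons bind their receptors. A list of 40 of them was followed on 7 mouse expression arrays. The genes were found by matching the accession of each array probe to a RefSeq gene symbol, and the level of the matched probes was read on every array. Of the 40 genes, 38 had a probe, with 50 probes in all, and 37 could be tested, out of 18027 genes tested on the arrays. Each of these 37 was well above background on 7 of 7 arrays. Mx1 and Mx2, which RefSeq lists as transcribed pseudogenes in the build used, were matched by no accession and have no value here. Oas1g had 2 probes, well above background on 0 and on 1 of the 7 arrays, and has no fold. Where a gene had several probes, the brightest was used.

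Type I interferons bind the Ifnar1 and Ifnar2 receptor pair, whose kinases Jak1 and Tyk2 phosphorylate Stat2. It joins Irf9 in a complex that enters the nucleus and binds the interferon-stimulated response element, a short sequence in the promoters of target genes. Interferon-γ acts instead through a gamma-activated site, and the induced proteins sense viral RNA, block replication, present antigen or damp the response. Skin and liver both respond to interferons, and several of the genes are also kept on at a low level without infection.

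By the labels, the cells were dermal sheath cells, the mesenchymal layer around the hair follicle, sorted from dorsal skin at postnatal day 15 as YFP+, CD34-, ALP- and ITGα8- cells. The 4 cΔex3-labelled arrays, the β-catenin activation group, hold RNA of 6 mice, with 2 mice pooled on array 2 and 2 on array 3. The 3 control-labelled arrays hold RNA of 4 mice, with 2 pooled on array 3. The driver of the recombinase is not given in the sources used here. The arrays carried transcripts of cells that the labels do not name. All 14 tested hepatocyte markers were lower on the cΔex3-labelled arrays, with a summed level between 69.8 and 252 there against 4923 to 6360 on the control-labelled arrays, and all 10 adipocyte markers were higher (summed level 814 to 1722 on cΔex3-labelled against 14.7 to 91.7 on control-labelled arrays). These sums are in multiples of the array's 75th percentile. Of 7 markers of dermal sheath and smooth muscle, 6 were higher (96.9 to 213 on cΔex3-labelled against 23.6 to 34.9 on control-labelled arrays), and of 8 fibroblast markers 8 were. Groups are therefore named by their labels, none of the differences is ascribed to the allele, and the part of other cells in any difference was not tested. Less RNA per cell and fewer cells of a type cannot be told apart in such bulk samples.

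Levels are given as log2 of the processed signal relative to the array's 75th percentile, so that 0 is the 75th percentile and 1 unit is a doubling. That percentile was 1858, 1348, 1659 and 2160 on the cΔex3-labelled arrays and 763, 756 and 907 on the control-labelled arrays, no spot was saturated, and the number of arrays limits the precision. Levels are compared between arrays for the same probe only. Differences are cΔex3-labelled minus control-labelled, and each adjusted p comes from limma, with the adjustment made over the 18027 genes and calls made under 0.05.

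The interferon-stimulated response element was found in the promoters of some of the genes and not in those of others. RefSeq promoters on GRCm38.p6, from 250 bases before to 50 after the gene's start, were available for 30 of the 40 genes in 34 windows. The element, searched as GAAANNGAAA and, on the other strand, TTTCNNTTTC, was found in 18 of the 34 windows (52.9%), against 3.44% of all 32851 windows. At least 2 elements, which may overlap each other, were found in 8 of the 34, against 0.225% of all. The gamma-activated site, searched as TTCNNNGAA, which reads the same on both strands, was found in 6 windows (17.6%), against 8.30% of all, and it overlapped a response element in 1. A match is a description of the letters and not a measured binding site. The following stretches, 5′ to 3′ on the gene's strand with the response elements in capitals, come from Oas1a, Ifit1 and Ifit3. Of the genes whose window holds the element they had the largest spread among the control-labelled arrays, while Ifi44, Ifit2 and Oasl2, whose windows hold 0 elements, and Usp18 and Oas2, which have no window, spread more than Ifit3.

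Oas1a: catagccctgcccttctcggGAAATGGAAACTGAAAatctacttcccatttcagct
Ifit1: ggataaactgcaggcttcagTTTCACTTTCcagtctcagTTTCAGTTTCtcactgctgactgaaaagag
Ifit3: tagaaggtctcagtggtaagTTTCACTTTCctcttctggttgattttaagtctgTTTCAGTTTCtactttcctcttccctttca

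The Oas1a stretch lies at chr5:120907510-120907565 on the minus strand, that of Ifit1 at chr19:34640765-34640833 and that of Ifit3 at chr19:34583353-34583436, both on the plus strand. In Oas1a the pair of elements overlap into 1 run, whereas Ifit1 and Ifit3 each hold a pair with a gap between them. The next stretches come from Bst2, Gbp2 and Irgm1, which had the largest called differences among the genes whose window holds the element. The differences of Oasl1, whose window holds 0 elements, and of Usp18, which has no window, were larger than that of Gbp2, and Irf7, next after Irgm1, has 0 elements.

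Bst2: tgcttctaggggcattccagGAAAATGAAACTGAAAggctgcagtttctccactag
Gbp2: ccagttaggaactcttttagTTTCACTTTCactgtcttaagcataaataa
Irgm1: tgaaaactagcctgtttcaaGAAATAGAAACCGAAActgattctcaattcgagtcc

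The Bst2 stretch lies at chr8:71537567-71537622 on the minus strand, that of Gbp2 at chr3:142620584-142620633 on the plus strand and that of Irgm1 at chr11:48871415-48871470 on the minus strand. Bst2 and Irgm1 hold overlapping elements and Gbp2 a single one, although Gbp2 was higher on the cΔex3-labelled arrays and Bst2 and Irgm1 lower. Over the 16 tested genes with an element the median standard deviation was 0.57 among cΔex3-labelled and 0.80 among control-labelled arrays. Over the 13 with a window but no element it was 0.64 among cΔex3-labelled and 0.79 among control-labelled arrays. Their median difference between the groups was −0.85 with an element and −0.46 without. These medians are descriptions of the listed genes.

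The levels of the interferon-stimulated genes varied together between arrays of the same label. Among the control-labelled arrays, array 3 was the highest in 36 of the 37 genes and array 2 the lowest in 36. The order array 3, array 1, array 2 was found in 35 of the 37 (94.6%), against 20.9% of all genes tested. The exceptions were Parp9, lowest on array 1, and Ifi27, highest on array 1. The median deviation of the 37 genes from the mean of their group was 0.79 on control array 3, 0.046 on array 1 and −0.73 on array 2, whereas the same median over all genes lay between −0.022 and 0.015 on these arrays. All 37 genes were above the group mean on control array 3 and below it on control array 2. The genes share their libraries, so that the counts do not stand for independent events.

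**Figure D1:**
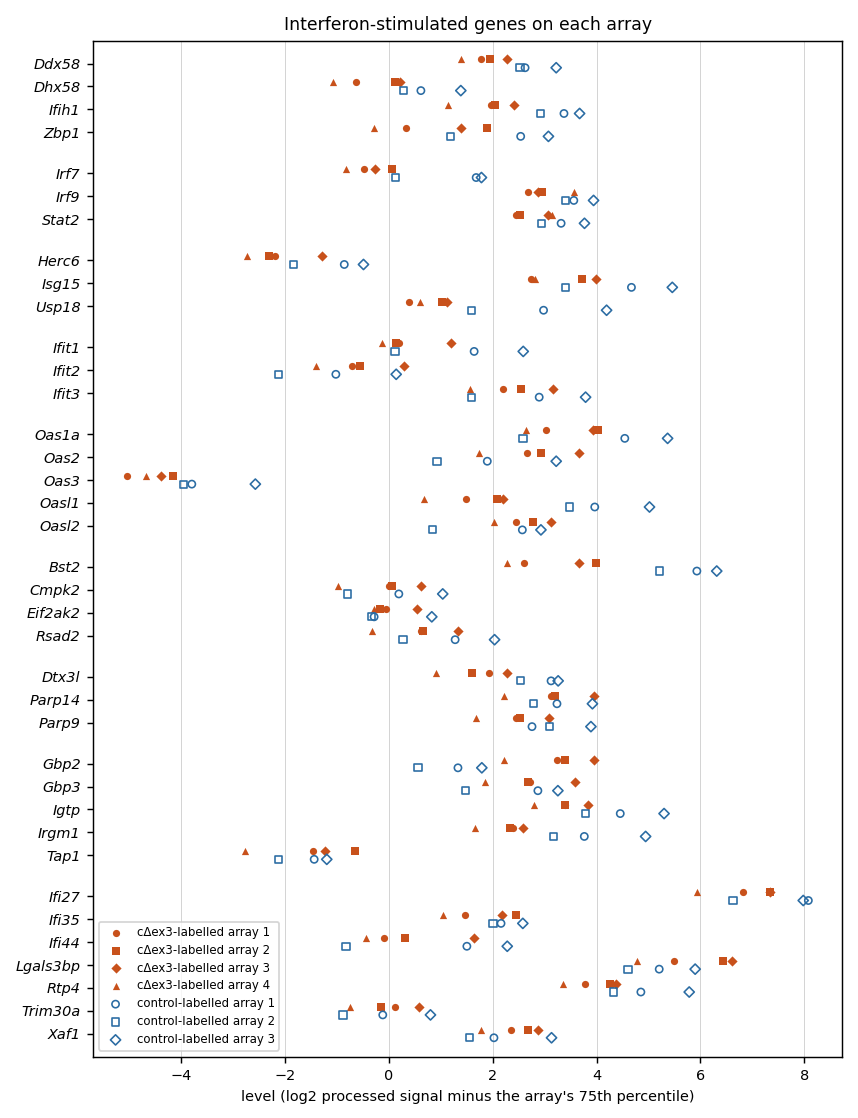
Level of each of the 37 genes (x axis, log2 of the processed signal relative to the array's 75th percentile), with 1 gene per row grouped by role, filled red marks for the 4 cΔex3-labelled arrays and, just under them, open blue marks for the 3 control-labelled arrays. Control array 3 (open diamonds) was the highest control in 36 genes and control array 2 (open squares) the lowest in 36.

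A like pattern was found among the cΔex3-labelled arrays. Array 4 was the lowest in 32 of the 37 genes, against 40.6% of all genes, and array 3 the highest in 27, against 23.7% of all genes. The order 3, 2, 1, 4 held in 18 genes (10.8% of all genes), the order 3, 1, 2, 4 in 7 (5.90%) and the order 2, 3, 1, 4 in 7 (11.7%). The median deviation of the 37 genes was −0.093 on array 1, 0.17 on array 2, 0.56 on array 3 and −0.75 on array 4. The 2 genes that were highest on array 4 were Irf9 and Stat2, which belong to the complex that binds the response element. The arrays that pooled 2 mice, cΔex3 arrays 2 and 3 and control array 3, had the highest median deviations of their groups. The 75th percentile of the signal was highest on cΔex3 array 4, where the genes were low, and, among the controls, on array 3, where they were high. The part of pooling and of signal strength in the spread was not tested.

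**Figure D2:**
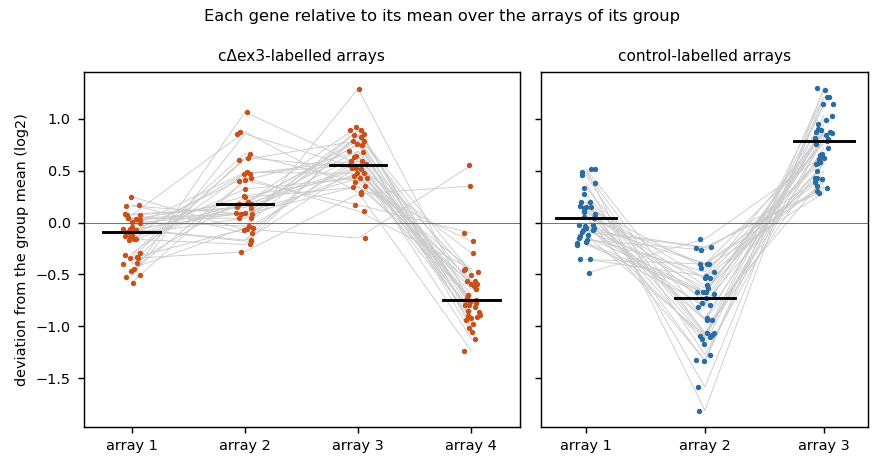
Deviation of each of the 37 genes from the mean of its group (y axis, log2) on each array, with the cΔex3-labelled arrays in the left panel and the control-labelled arrays in the right one, where a point is a gene, grey lines join the points of a gene and black bars are medians. The medians were −0.093, 0.17, 0.56 and −0.75 on cΔex3-labelled arrays 1 to 4 and 0.046, −0.73 and 0.79 on control-labelled arrays 1 to 3.

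The shared shift was large beside the spread of other genes. The standard deviation of the 37 genes had a median of 0.62 among the cΔex3-labelled arrays (0.35 to 0.99) and of 0.79 among the control-labelled arrays (0.28 to 1.62). The same medians over all genes were 0.40 among cΔex3-labelled and 0.23 among control-labelled arrays. Over the 15340 genes above background on all arrays they were 0.36 among cΔex3-labelled and 0.21 among control-labelled arrays. All 37 genes exceeded the all-gene median among the control-labelled arrays, and 30 of 37 did among the cΔex3-labelled arrays. Between the lowest and the highest array of a group the median gene differed 2.62-fold among the cΔex3-labelled and 2.86-fold among the control-labelled arrays. The standard deviation was larger among the control-labelled arrays in 26 of 37 genes (70.3%), against 27.3% of all genes. That count was 21 with median scaling, where both group medians were 0.76, 19 with arrays of 1 mouse, 14 without control array 2, 16 without control array 3 and 35 without cΔex3 array 4. These medians depended on the arrays used. That of the cΔex3-labelled group was 0.40 without array 4, and that of the control-labelled group was 1.07 without array 1, 0.54 without array 2 and 0.51 without array 3.

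**Figure D3:**
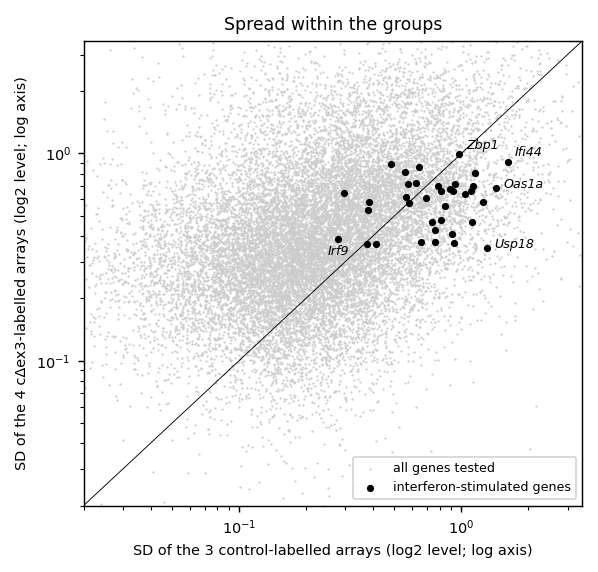
Standard deviation of each gene's log2 level among the 4 cΔex3-labelled arrays (y axis) and among the 3 control-labelled arrays (x axis), both on log axes, with the 37 genes in black, all other genes tested that fall within the axes in grey and the line of equal values drawn. Of the 37 genes, 26 lie on the side of the line where the control-labelled spread is larger.

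The genes with the largest spread among the control-labelled arrays were Ifi44, Oas1a, Usp18 and Ifit1. Ifi44 stood at −0.088, 0.30, 1.64 and −0.44 on the cΔex3-labelled arrays, against 1.5, −0.83 and 2.28 on the control-labelled arrays, a standard deviation of 0.91 in the cΔex3-labelled and 1.62 in the control-labelled group. Oas1a, which makes oligoadenylates when it binds double-stranded RNA, stood at 3.02, 4.03, 3.93 and 2.64 on the cΔex3-labelled arrays, against 4.54, 2.58 and 5.37 on the control-labelled arrays, a range of 6.9-fold among the controls. In both genes control array 2 lay below, and control array 3 above, every cΔex3-labelled array, so that the groups overlapped. The smallest control-labelled spread was that of Irf9, with a standard deviation of 0.28, followed by Ifi35 with 0.30 and Ddx58 with 0.38. These genes still had array 3 as the highest control-labelled array and array 2 as the lowest.

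Between the groups, 10 of the 37 genes passed the threshold as lower on the cΔex3-labelled arrays, where 29.1% of all genes tested were lower, and 1 was higher, where 24% of all genes were higher. In either direction 53.1% of all genes were called. The other 26 did not pass the threshold. The groups' arrays did not overlap in 10 genes that were lower, against a background of 32.6%, and in 1 that was higher, against 26.1%. Igtp was called although its groups overlapped, and Dhx58 was not called although its groups did not. The share of the genes called in either direction was thus below that of all genes. The median difference over the 37 was −0.71, against −0.080 over all genes, and 28 of the 37 differences were negative, against 52.8% of all genes. The count of lower calls was 4 without control array 1, 15 without control array 2, 5 without control array 3 and 6 without cΔex3 array 1.

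**Figure D4:**
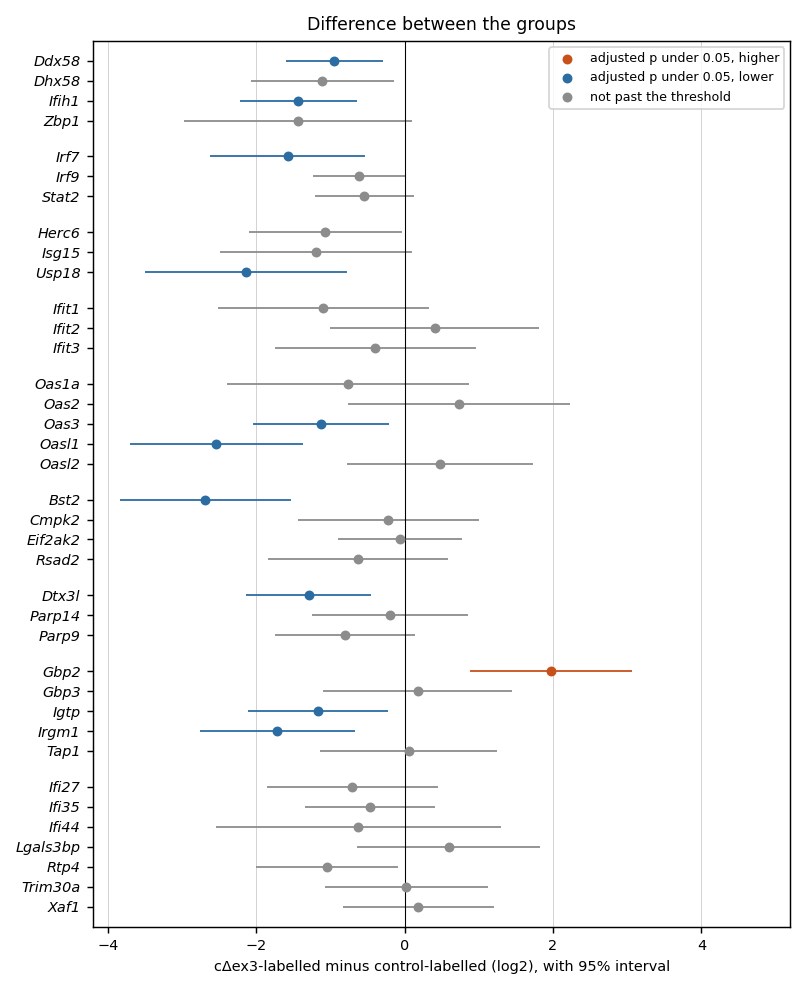
Difference of each of the 37 genes (x axis, log2, cΔex3-labelled minus control-labelled) as a point with its 95% confidence interval from limma, 1 gene per row grouped by role and coloured by whether it passed the adjusted threshold of 0.05. Bst2, at −2.69, lies at the low end and Gbp2, at 1.97, at the high end.

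Among the RNA sensors, Ifih1 and Ddx58 were lower on the cΔex3-labelled arrays. Ifih1 encodes MDA5, which recognises long double-stranded RNA, and stood at 1.97, 2.04, 2.41 and 1.14 on the cΔex3-labelled arrays, against 3.37, 2.92 and 3.67 on the control-labelled arrays. It differed by −1.43 ± 0.34 (SE, adjusted p = 0.0104), with no overlap. Ddx58, which encodes RIG-I, the sensor of uncapped viral RNA ends, stood at 1.78, 1.94, 2.27 and 1.39 on the cΔex3-labelled arrays, against 2.62, 2.53 and 3.22 on the control-labelled arrays. It differed by −0.95 ± 0.27 (SE, adjusted p = 0.024), again without overlap. This call was lost in 6 of 18 other settings, including those without control array 1 (−1.03), control array 3 (−0.73) or cΔex3 array 1 (−0.93). A second, dimmer Ddx58 probe gave −0.61 (limma adjusted p = 0.167 over all probes tested). Dhx58, which encodes their relative LGP2, did not overlap between the groups either but missed the threshold, at −1.11 ± 0.41 (SE, adjusted p = 0.0553), and passed it without cΔex3 array 3 (−1.29, adjusted p = 0.0442). Zbp1, a sensor of Z-form nucleic acids, differed by −1.44 ± 0.65 (SE, adjusted p = 0.101) and overlapped, since control array 2 at 1.19 lay below cΔex3 arrays 2 and 3.

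Of the transcription factors, Irf7 was lower. Irf7, which drives transcription of the type I interferon genes and is itself induced by them, stood at −0.47, 0.052, −0.27 and −0.83 on the cΔex3-labelled arrays, against 1.68, 0.13 and 1.78 on the control-labelled arrays. All 4 cΔex3-labelled arrays lay below the 3 controls, although cΔex3 array 2 came close to control array 2. The difference was −1.58 ± 0.44 (SE, adjusted p = 0.0211). It missed the threshold in 5 of 18 other settings, including those without control array 1 (−1.34), control array 3 (−1.29) or cΔex3 array 1 (−1.55). Irf9 stood at 2.67, 2.95, 2.86 and 3.57 on the cΔex3-labelled arrays, against 3.56, 3.40 and 3.94 on the control-labelled arrays, and Stat2 at 2.45, 2.51, 3.07 and 3.15 on the cΔex3-labelled arrays, against 3.32, 2.94 and 3.77 on the control-labelled arrays. They differed by −0.62 ± 0.26 (SE, adjusted p = 0.0839) and −0.55 ± 0.28 (SE, adjusted p = 0.143), and in both the highest cΔex3-labelled array was array 4. Without that array Irf9 passed the threshold, at −0.80 (limma, adjusted p = 0.0141). Over the 7 arrays, after taking off group means, Irf9 correlated at −0.054 with the median of the other genes and Stat2 at 0.40, the 2 lowest values of the 37, where the next, Oas3, was at 0.73.

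The ISG15 system attaches the ubiquitin-like protein Isg15 to other proteins. Usp18, the protease that takes Isg15 off again and that also damps signalling at the receptor, was lower. It stood at 0.38, 1.02, 1.12 and 0.60 on the cΔex3-labelled arrays, against 2.98, 1.59 and 4.19 on the control-labelled arrays. Every cΔex3-labelled array was below every control, and the 3 controls spanned 6.06-fold among themselves. The difference was −2.14 ± 0.57 (SE, adjusted p = 0.018). It missed the threshold without control array 1 (−2.11) and with arrays of 1 mouse only (−1.80). Isg15 stood at 2.74, 3.72, 4.00 and 2.81 on the cΔex3-labelled arrays, against 4.67, 3.41 and 5.46 on the control-labelled arrays, with control array 2 inside the cΔex3-labelled range, and its difference of −1.19 ± 0.55 (SE, adjusted p = 0.104) missed the threshold but passed it without control array 2, at −1.75 (limma, adjusted p = 0.029). Herc6, the ligase that attaches Isg15 in mice, differed by −1.07 ± 0.44 (SE, adjusted p = 0.0751), whereas a second Herc6 probe gave −0.0041. Herc6 passed without control array 2 (−1.46, adjusted p = 0.0365) or cΔex3 array 3 (−1.35, adjusted p = 0.0293).

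None of the 3 Ifit genes, among them Ifit1, whose protein binds RNA that lacks the host's cap marks, passed the threshold. Ifit1 stood at 0.19, 0.14, 1.20 and −0.13 on the cΔex3-labelled arrays, against 1.64, 0.11 and 2.59 on the control-labelled arrays. The controls covered the whole cΔex3-labelled range except its lowest array, and the difference was −1.10 ± 0.60 (SE, adjusted p = 0.164), with a 95% interval of −2.52 to 0.33. Without control array 2 it passed, at −1.76 (limma, adjusted p = 0.0268). Ifit2 differed by 0.41 ± 0.60 (SE, adjusted p = 0.59) and Ifit3 by −0.40 ± 0.57 (SE, adjusted p = 0.585), with intervals of −1.0 to 1.81 and −1.76 to 0.96. The near-identical Ifit3b may share signal with Ifit3. In all 3 genes control array 3 was the highest control, control array 2 the lowest, and cΔex3 array 4 the lowest of its group.

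Of the 5 tested genes of the oligoadenylate synthetase family, Oasl1 and Oas3 were lower. Oasl1, which in mice holds back translation of Irf7, stood at 1.48, 2.08, 2.20 and 0.67 on the cΔex3-labelled arrays, against 3.96, 3.48 and 5.02 on the control-labelled arrays. The groups did not overlap, and the difference was −2.54 ± 0.49 (SE, adjusted p = 0.0047), a 5.83-fold lower mean. Oas3 stood at −5.04, −4.17, −4.40 and −4.68 on the cΔex3-labelled arrays, against −3.80, −3.96 and −2.58 on the control-labelled arrays, levels far below the 75th percentile, with a difference of −1.13 ± 0.39 (SE, adjusted p = 0.0435). It missed the threshold in 12 of 18 other settings, including those without control array 1 (−1.30) or 3 (−0.69) and without cΔex3 array 1 (−0.97), 3 (−1.18) or 4 (−1.09). The 75th percentile used for scaling was higher on the cΔex3-labelled arrays, and its part in the Oas3 difference was not tested. Oas1a, at −0.76 ± 0.69 (SE, adjusted p = 0.384) and −1.55 without control array 2 (adjusted p = 0.0499), Oas2, at 0.73 ± 0.63 (SE, adjusted p = 0.363), and Oasl2, at 0.48 ± 0.53 (SE, adjusted p = 0.472), did not pass, and the last 2 had positive differences. Oas1a and the other copies of Oas1 are near-identical, so that probes may share signal.

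Bst2 had the largest difference of the list. It encodes tetherin, which holds budding virus particles at the cell surface, and stood at 2.61, 3.98, 3.66 and 2.28 on the cΔex3-labelled arrays, against 5.93, 5.22 and 6.32 on the control-labelled arrays. The groups were well apart, with the lowest control far above the highest cΔex3-labelled array. The difference was −2.69 ± 0.49 (SE, adjusted p = 0.00351), a 6.45-fold lower mean on the cΔex3-labelled arrays. Rsad2, which encodes viperin, differed by −0.63 ± 0.51 (SE, adjusted p = 0.337), its genomic neighbour Cmpk2, a nucleotide kinase, by −0.22 ± 0.52 (SE, adjusted p = 0.74), and Eif2ak2, which encodes the kinase PKR that halts translation, by −0.064 ± 0.35 (SE, adjusted p = 0.891). These overlapped between the groups, and the 95% interval of Eif2ak2 ran from −0.90 to 0.77.

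Dtx3l, a ubiquitin ligase that works as a pair with Parp9, was lower, and its partner did not pass the threshold. Dtx3l stood at 1.93, 1.61, 2.28 and 0.91 on the cΔex3-labelled arrays, against 3.12, 2.54 and 3.26 on the control-labelled arrays, without overlap and with a difference of −1.29 ± 0.36 (SE, adjusted p = 0.02). Dtx3l no longer passed under 6 of the 18 alternatives, among them those without control array 1 (−1.22) or control array 3 (−1.15). Its second, dimmer probe differed by −0.78 (limma adjusted p = 0.183 over all probes tested). Parp9 stood at 2.46, 2.53, 3.08 and 1.67 on the cΔex3-labelled arrays, against 2.76, 3.09 and 3.89 on the control-labelled arrays. Only cΔex3 array 3 reached into the control range of Parp9, and its difference was −0.81 ± 0.40 (SE, adjusted p = 0.127). Parp14, an ADP-ribosyltransferase, differed by −0.20 ± 0.45 (SE, adjusted p = 0.735). The difference between Dtx3l and Parp9 was not tested.

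Interferon-γ strongly induces the GTPases of the guanylate-binding and immunity-related families, and here these went in both directions. Gbp2 was the only one of the 37 genes called higher. It stood at 3.23, 3.39, 3.94 and 2.22 on the cΔex3-labelled arrays, against 1.33, 0.56 and 1.79 on the control-labelled arrays, each cΔex3-labelled array above each control, and differed by 1.97 ± 0.46 (SE, adjusted p = 0.0103), a 3.92-fold higher mean. The call was lost with arrays of 1 mouse only, where the difference was 1.78 (limma, adjusted p = 0.0629). Irgm1 stood at 2.40, 2.32, 2.59 and 1.65 on the cΔex3-labelled arrays, against 3.76, 3.16 and 4.94 on the control-labelled arrays and was lower, at −1.72 ± 0.44 (SE, adjusted p = 0.0153). The Irgm1 call was lost in 2 of 18 other settings (highest limma adjusted p = 0.0615). Igtp stood at 3.39, 3.39, 3.83 and 2.79 on the cΔex3-labelled arrays, against 4.46, 3.78 and 5.30 on the control-labelled arrays, with a difference of −1.17 ± 0.40 (SE, adjusted p = 0.0438) although cΔex3 array 3 was above control array 2, and it missed the threshold in 10 of 18 other settings, including those without control array 1 (−1.19) or 3 (−0.77) and without cΔex3 array 1 (−1.18), 2 (−1.18) or 4 (−0.98). Gbp3, at 0.17 ± 0.54 (SE, adjusted p = 0.807), and Tap1, which carries peptides to MHC class I molecules, at 0.055 ± 0.51 (SE, adjusted p = 0.934), did not pass.

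The remaining 7 genes did not pass the threshold in either direction. Rtp4, a receptor transport protein, came nearest, at −1.05 ± 0.41 (SE, adjusted p = 0.0651), with cΔex3 array 3 just above control array 2, and it passed without control array 2 (−1.38, adjusted p = 0.0398). Lgals3bp, a secreted protein that binds galectin-3, had a positive difference of 0.59 ± 0.52 (SE, adjusted p = 0.372). It passed the threshold as higher in 2 of 18 other settings (lowest limma adjusted p = 0.0427). Ifi27 differed by −0.71 ± 0.49 (SE, adjusted p = 0.257), or 0.24 with quantile normalisation, Ifi35 by −0.46 ± 0.37 (SE, adjusted p = 0.322), and Ifi44 by −0.63 ± 0.81 (SE, adjusted p = 0.539). Xaf1, which binds an inhibitor of apoptosis, differed by 0.18 ± 0.43 (SE, adjusted p = 0.744) and Trim30a by 0.023 ± 0.46 (SE, adjusted p = 0.971). For Xaf1 the probes disagreed: a second, dimmer probe was 1.49 higher (limma adjusted p = 0.0265 over all probes tested). The order of the control-labelled arrays held in 6 of these 7 genes, the exception being Ifi27.

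Upstream of these genes, other parts of the pathway were read on lists written with earlier results of these data known. Of 13 tested interferon genes, 8 were lower and 1 higher, with a median of −0.68. For this and the following lists, the shares over all genes tested were 29.1% lower and 24% higher. The α interferons Ifna7 at −2.14 (adjusted p = 0.000452), Ifna12 at −1.08 (adjusted p = 0.00474), Ifna13 at −0.76 (adjusted p = 0.00701) and Ifna16 at −1.31 (adjusted p = 0.00868) were among the lower ones, and 2 of the 4 cΔex3-labelled arrays had Ifna16 above background. The α interferon genes are near-copies of each other whose probes may share signal. The named probes were dim, with levels from −1.93 (Ifna7, control array 2) to −6.80 (Ifna16, cΔex3 array 2). The percentile used for scaling was 756 to 907 on the control-labelled and 1348 to 2160 on the cΔex3-labelled arrays. A probe with a similar unscaled signal in both groups thus has a lower level on the cΔex3-labelled arrays. The part of the scaling in these calls was not tested, and they are not read as lower interferon expression. Ifnb1, the β interferon gene, was not well above background on any array, nor were Ifna4 and Ifne. Of the 13 tested interferon genes, 2 had control array 3 as the highest control and 6 had control array 2 as the lowest, against 36 and 36 of the 37 induced genes. All 13 had negative levels on every array, so that this contrast sets dim probes against mostly brighter ones.

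Of 9 receptor and kinase genes, 4 were higher, against 24% of all genes, and 0 lower, against 29.1%. They were Ifngr1, the ligand-binding chain of the interferon-γ receptor, at 1.92 (adjusted p = 0.00427), its kinase Jak2 at 0.88 (adjusted p = 0.0105), Il10rb at 1.07 (adjusted p = 0.0246) and Ifnlr1 at 2.15 (adjusted p = 0.0478), the last pair forming the receptor of interferon-λ. The call of Il10rb was lost without control array 1 or 2 or cΔex3 array 1, 2 or 3, taken out singly (0.93 to 1.09), and that of Ifnlr1 without any control array or cΔex3 array 1 or 2 (1.71 to 2.52). The type I receptor chains differed by −0.12 (adjusted p = 0.763) for Ifnar1 and −0.42 (adjusted p = 0.388) for Ifnar2. Of 12 genes of STATs, other IRFs and feedback inhibitors, 2 were higher and 3 lower, against the same shares. Socs1, which blocks Jak kinases, was higher at 1.17 (adjusted p = 0.0146), as was the phosphatase gene Ptpn11 at 0.83 (adjusted p = 0.028), while Irf2, at −1.31 (adjusted p = 0.00907), and Ptpn6, at −0.74 (adjusted p = 0.0315), were lower. The call of Socs1 was lost without control array 1 (1.09) or 2 (0.98), that of Ptpn11 without any array but cΔex3 array 4 (0.72 to 0.86), and that of Ptpn6 without control array 2 or 3 or cΔex3 array 1, 2 or 3 (−0.78 to −0.58). Irf1 differed by −0.0077 (adjusted p = 0.984).

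Of 15 other genes of nucleic acid sensing, 7 were lower, against 29.1% of all genes, and 2 higher, against 24%. Mavs, the adaptor through which the proteins of Ifih1 and Ddx58 signal, was lower at −1.91 (adjusted p = 0.000105), as were Tlr9 at −2.04 (adjusted p = 0.00362) and the adaptor Ticam1 at −0.92 (adjusted p = 0.00334). Of 12 genes of MHC class I presentation, 4 were lower and 1 higher, the lower ones close to the share of all genes. The lower ones were the peptidase gene Erap1 at −1.39 (adjusted p = 0.00138), the proteasome activator Psme1 at −1.02 (adjusted p = 0.00405), H2-K1 at −0.87 (adjusted p = 0.0197) and B2m at −0.84 (adjusted p = 0.0223). H2-K1 and B2m turned to 0.24 and 0.19 with quantile normalisation and to 0.28 and 0.31 in the deposited series values, so that they have no settled direction. Both calls were also lost without control array 1 (−0.82 and −0.90), control array 2 (−0.87 and −0.78) or cΔex3 array 1 (−0.81 and −0.77), and that of B2m without control array 3 (−0.84).

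A further 35 interferon-induced genes outside the list of 40 had 11 lower, 7 higher and a median difference of 0.0030, shares close to the 29.1% lower and 24% higher of all genes. Ube2l6, the enzyme that hands Isg15 on, was lower at −1.69 (adjusted p = 0.000343), as were Ifitm3, which blocks virus entry, at −1.77 (adjusted p = 0.000434) and Trafd1 at −1.63 (adjusted p = 0.000643). Ifi27l2a was higher at 3.21 (adjusted p = 0.000989). Cxcl10, a chemokine that draws T cells, stood at −0.28, 0.38, 0.59 and −0.58 on the cΔex3-labelled arrays, against 2.59, 0.70 and 3.72 on the control-labelled arrays and was lower, at −2.31 ± 0.69 (SE, adjusted p = 0.0275). Its call was lost without control array 1 (−2.18) or 3 (−1.62) or cΔex3 array 1 (−2.21) or 4 (−2.11). The array order was seen here too. Control array 3 was the highest control in 28 of these 35 genes and control array 2 the lowest in 30, against 33.7% and 34.6% of all genes, and cΔex3 array 4 was the lowest of its group in 32, against 40.6%.

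Over the 7 arrays and after taking off group means, the 10 genes outside the list that ran most like the median of the 37, among 15303 genes above background on all arrays, were Ncaph, Kif20a, Cd274, Osgin2, Ccna2, Phf11d, Zfp984, Lpl, Gtf3c5 and Snn, with correlations of 0.98 to 0.995. These correlations rest on 7 points that every gene shares and are given as a description. Cd274, which encodes the checkpoint ligand PD-L1, and Phf11d are on the pathway lists, whereas Ncaph, Kif20a and Ccna2 encode a condensin subunit, a mitotic kinesin and cyclin A2. Of the 100 most alike genes, 10 were on the pathway lists, which hold 94 of the 15303 candidates. Ncaph stood at −0.041, 0.29, 0.66 and −0.72 on the cΔex3-labelled arrays, against −0.88, −1.82 and 0.068 on the control-labelled arrays. It ran the order 3, 2, 1, 4 among the cΔex3-labelled arrays and 3, 1, 2 among the controls.

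Markers of cells that respond to interferon or make it were read on the same arrays, and some lists ran in the order of the interferon-stimulated genes while others did not. For the calls below, 24% of all genes were higher and 29.1% lower. Of 6 pan-leukocyte markers, 2 were higher and 0 lower, and control array 3 was the highest control and control array 2 the lowest in 6 of 6. Their median deviation was 0.35, 0.13, 0.22 and −0.78 on the cΔex3-labelled arrays and −0.11, −0.41 and 0.44 on the control-labelled arrays. Their summed level was 42.3, 43.4, 40.3 and 250 on the cΔex3-labelled arrays, where Cd52 was at 7.90 on array 4, against 17.6, 14.7 and 29.6 on the control-labelled arrays. Of 13 macrophage and Kupffer cell markers, 1 was higher and 4 lower, and control array 3 was the highest control in 11 and cΔex3 array 4 the lowest of its group in 12. The 4 lower ones were Clec4f at −10.88, Cd5l at −5.60, Vsig4 at −4.91 and Marco at −3.71, known from resident macrophages of the liver, and the summed level of the list was 60.3 to 153 on the cΔex3-labelled and 201 to 325 on the control-labelled arrays.

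Of 8 markers of plasmacytoid dendritic cells, the main makers of type I interferon, 1 was higher and 2 lower, with a summed level of 105 to 136 on the cΔex3-labelled and 201 to 211 on the control-labelled arrays. Nearly all of that sum came from the Siglech probe, at 6.97, 6.99, 6.97 and 6.63 on the cΔex3-labelled and 7.57, 7.64 and 7.6 on the control-labelled arrays. Control array 3 was the highest control in 3 of these 8 markers and control array 2 the lowest in 3. Neutrophil markers were lowest on control array 2 in 5 of 5 and highest on control array 1 in 4, with a summed level of 4.36 to 8.95 on the cΔex3-labelled against 4.85 to 18.8 on the control-labelled arrays. In the 9 T and NK cell markers control array 3 was the highest control in 5 and control array 2 the lowest in 5. They had 4 higher and 3 lower (summed level 6.24 to 9.38 on cΔex3-labelled against 12.1 to 15.3 on control-labelled arrays), and the 9 endothelial ones 4 higher and 3 lower (28.2 to 51 on cΔex3-labelled against 87.8 to 95.9 on control-labelled arrays). Of 5 B cell markers 0 were higher and 2 lower (1.19 to 5.45 on cΔex3-labelled against 0.842 to 2.25 on control-labelled arrays), and of 5 tested keratinocyte markers 1 was higher and 0 lower (5.01 to 12.2 on cΔex3-labelled against 2 to 2.55 on control-labelled arrays). In 4 of the 5 keratinocyte markers cΔex3 array 4 was the highest of its group, against 29.0% of all genes. Lists of structural cells ran partly in the order of the interferon-stimulated genes. Control array 3 was the highest control in 7 of 8 fibroblast, 6 of 9 endothelial and 5 of 10 adipocyte markers, against 33.7% of all genes. Control array 2 was the lowest in 3, 3 and 2 of them, against 34.6%. In 7, 7 and 10 of them cΔex3 array 4 was the lowest of its group, against 40.6%. The hepatocyte list did not follow the order. Control array 3 was the highest control in 0 of 14 and the lowest in 13, and control array 2 was the highest in 8. Neither did dermal sheath and smooth muscle. There control array 3 was the highest control in 0 of 7 and the lowest in 2, and control array 2 was the highest in 6. Over all genes, control array 3 was the lowest control in 40.4% and control array 2 the highest in 35.4%. Each marker with a probe on these lists was well above background on at least 1 array except Krt1, a keratinocyte gene. The part of these cells in the spread or the difference was not tested.

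The position on the slide divided the arrays unevenly. By the file headers, control arrays 1 and 2 and cΔex3 array 1 lay in 1 row of the slide and control array 3 and cΔex3 arrays 2 to 4 in the other. Within the first row the median difference of the 37 genes was −0.61, with 25 lower and 12 higher values, and within the other it was −1.46, with 35 lower and 2 higher. With the row as a block the median was −0.99. The part of the row in the spread was not tested.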

How the data were processed

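RNA of 7 samples was measured on 1-colour mouse arrays, 1 array per sample. Per the labels' protocols, total RNA of sorted cells was linearly amplified and labelled with Cy3. Scans were quantified with Agilent Feature Extraction 10.7.1.1, per the file headers, and the deposited processed signal is an intensity on a linear scale from which background has been subtracted. Deposited median and local background intensities served 1 alternative, and flags per spot (other values, 0 or 1) marked outliers and spots well above background. The authors also deposited log2 values of the whole series, whose making, background handling and centring are not stated. Their medians ran from 7.62 to 7.63 on the cΔex3-labelled arrays and were 7.61 on the 3 control-labelled arrays, and they served as an alternative.

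From these files, log2 of the processed signal minus the array's 75th percentile was computed. Control and outlier spots were left out and spots of 1 probe averaged, which gave 55681 probes, 49 of them without a value on some array. Of these, 28026 were named through their accession in RefSeq (GRCm38.p6) and 27655 have no name here. Probes were tested if 3 or more of the 7 arrays had them well above background, with the brightest probe per gene. The groups, taken from the sample titles, were compared with limma 3.58.1 in R 4.3.3 (lmFit and eBayes, two-sided, no covariate), with Benjamini-Hochberg adjustment over 18027 genes. Every adjusted p printed comes from this fit unless a setting is named. The fit was tested on simulated data.

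All listed genes are named, with the 4 genes of smallest p of each pathway list and Ifnar1, Ifnar2, Irf1, Cxcl10 and Ifnb1. Other genes that the rule names are counted in their lists and not reported here singly. The genes and lists were chosen with earlier results of these data known, and for that reason no list was given a test. The genes most like the list were found by Pearson correlation with the median profile of the 37 genes after subtracting group means. Shares over all genes are given as the background of counts of calls and of array orders. Sums of markers are of linear signals over the array's 75th percentile.

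The alternatives were normexp background correction (offset 50, on the median signal, as the files hold no mean signal), quantile or median scaling, the probe filter and probe rule, the deposited series values, array weights, blocks for replicate number or slide row, arrays of 1 mouse only, and each array left out in turn. Over all genes tested, the correlations of same-numbered deviations were −0.0088, −0.00089 and 0.018. These cannot settle whether replicate numbers pair the samples. For the 37 genes, array 3 had the highest median deviation in both groups, 0.79 among control-labelled and 0.56 among cΔex3-labelled arrays. Header and file name gave different slide numbers for 7 of 7 arrays and different positions for 4, so files were tied to samples through the repository's record. The labels call the samples separate mice or pools of mice, so that p-values cover the spread between such samples and not that between single animals alone.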

Additional observations from a re-analysis of the deposited data

Results flagged for a closer look

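None of the 37 interferon-stimulated genes had an array that stood apart from the others of its group by Dixon's criterion for 4 arrays, which could be applied to the cΔex3-labelled arrays only. Of 64 genes examined in this way, 2 genes of the pathway lists did, and chance gives about 1 in 20. The adaptor gene Ticam1 was highest on cΔex3 array 4, at −0.20, where the next array was at −0.45 and the lowest at −0.48. Trafd1, a feedback regulator of innate immune signalling, was lowest on cΔex3 array 4, at 3.59, where the next array was at 3.95 and the highest at 4.02. Both are on the array on which 32 of the 37 interferon-stimulated genes were the lowest of their group.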

How the results depend on the processing

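The shared order of arrays kept its direction in the other settings run with all arrays of a group: control array 3 was the highest control in 36 to 37 genes, control array 2 the lowest in 35 to 37 and cΔex3 array 4 the lowest of its group in 32 to 33. Bst2, Oasl1 and Ifih1 stayed past the threshold in all 18 other settings, and Gbp2 in all but the arrays of 1 mouse. Counts of higher and lower calls among the 37 genes, 1 and 10, were 2 and 6 with quantile normalisation, 2 and 6 in the deposited series values and 0 and 5 with arrays of 1 mouse. Leaving out 1 array at a time gave 4 (control array 1) to 15 (control array 2) lower calls. The median standard deviation of the control-labelled arrays was 0.51 with arrays of 1 mouse and 0.51 to 1.07 with 1 array left out, and that of the cΔex3-labelled arrays 0.40 to 0.72 with 1 array left out and 0.76 with median scaling, where that of the control-labelled arrays was also 0.76. The median difference was −1.46 within the second slide row, an alternative chosen after seeing the data, and otherwise between −1.09 and −0.32. With the replicate block, which pairs arrays of the same replicate number, it was −0.56, and 8 of the 10 lower calls and that of Gbp2 were kept. Calls among all genes, 4333 higher and 5237 lower, were 3473 and 6279 with normexp, 5165 and 4309 with quantile normalisation and 4928 and 4165 in the deposited series values, where the median of all genes was −0.22, 0.13 and 0.11, against −0.080.

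The following differences turned sign. With quantile normalisation, Parp14 was at 0.22, Ifi27 at 0.24, H2-K1 at 0.24, B2m at 0.19, Ifnar1 at 0.078, Ifnar2 at 0.084 and Irf1 at 0.57. In the deposited series values, Ifit3 was at 0.0011, Parp14 at 0.14, Eif2ak2 at 0.088, Ifi27 at 0.42, H2-K1 at 0.28, B2m at 0.31, Ifnar1 at 0.19, Ifnar2 at 0.21 and Irf1 at 0.58. With normexp, Eif2ak2 was at 0.082, Tap1 at −0.039, Ifnar1 at 0.045 and Irf1 at 0.053. With array weights, Cmpk2 was at 0.076, Parp14 at 0.16, Eif2ak2 at 0.26, Ifnar1 at 0.13 and Irf1 at 0.25. With the replicate block, Cmpk2 was at 0.079, Parp14 at 0.11, Eif2ak2 at 0.034 and Irf1 at 0.18. With the slide row as a block, Xaf1 was at −0.10, Trim30a at −0.18, Tap1 at −0.038 and Gbp3 at −0.039. With arrays of 1 mouse, Eif2ak2 was at 0.13, Tap1 at −0.33 and Ifnar1 at 0.11.

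With 1 array left out at a time, these differences turned sign, over ranges of −0.16 to 0.98 for Ifit2, −0.98 to 0.12 for Ifit3, −0.16 to 0.89 for Oasl2, −1.53 to 0.019 for Ifi44, −0.16 to 0.63 for Xaf1, −0.69 to 0.22 for Cmpk2, −0.47 to 0.11 for Parp14, −0.39 to 0.46 for Trim30a, −0.26 to 0.31 for Eif2ak2, −0.24 to 0.47 for Tap1, −0.36 to 0.53 for Gbp3, −0.46 to 0.13 for Ifnar1 and −0.16 to 0.19 for Irf1. None of the genes of this and the preceding sentences but H2-K1 and B2m had passed the threshold. The cause of these turns was not tested. With 7 arrays, the 95% intervals of most uncalled genes span both directions. Dim probes such as those of Oas3 lie nearer to background than the rest.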
